A study of Mus musculus with 30 samples.

Results

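Chemokine ligands and chemokine receptors of the mouse were followed in the stroma of brain, lung and bone, with and without tumours grown from human circulating tumour cells. The genes were taken by symbol: Ccl, Cxcl, Ccr, Cxcr or Xcr followed by a number and at most 1 letter, together with Cx3cl1, Xcl1 and the atypical receptors Ackr1 to Ackr4, and without Cxcl12 and Cx3cr1. This gave 58 genes, 37 ligands and 21 receptors, among 43346 Ensembl gene IDs, of which 42462 had a symbol.

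Chemokines are small secreted proteins that guide leukocytes through tissue by binding receptors that signal through G proteins. Inflammatory CC ligands attract monocytes, macrophages and dendritic cells, CXC ligands of the Cxcl1 type attract neutrophils, and interferon induces Cxcl9, Cxcl10 and Cxcl11. Atypical receptors bind chemokines without the usual G protein signal and take them up or carry them across vessel walls. In the brain, microglia, border macrophages, vessels and glia are known sources of chemokines. In bone marrow, stromal cells make chemokines that hold or release neutrophils and monocytes.

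The labels describe bulk RNA sequencing of 30 libraries of cells without GFP, called stroma, that were sorted from dissociated tissue. Per the labels' protocols, tumours were established by injecting 100000 circulating tumour cells (CTCs) marked with GFP and luciferase into the left side of the heart of female NSG mice. The mice were 6 to 8 weeks old and carried estrogen pills that release slowly. RNA came from 50000 sorted cells per library. Each tumour line (Brx07, Brx42, Brx50 or Brx68) is a cultured CTC line, so a line stands for 1 culture. In brain, 3 libraries were exposed to Brx50. In lung, 7 libraries were exposed: 2 to Brx07, 1 to Brx42, 3 to Brx50 and 1 to Brx68. In bone, 13 libraries were exposed: 2 to Brx07 (1 from leg and 1 from skull), 4 to Brx50 and 7 to Brx68. Tumour-free mice gave 2 brain, 2 lung and 3 bone control libraries. The sources used here do not say whether the tumour-free mice carried estrogen pills. The NSG host is immunodeficient and lacks mature T, B and natural killer cells. The labels do not state that each library is a different mouse, and codes in the titles recur: brain replicate 3, lung replicate 6 and bone replicate 4 of the Brx50 libraries all carry the code 83.2. Both Brx07 bone libraries carry the code 2.1 and entered the main bone test as separate libraries. The code 84.2 occurs with both Brx50 and Brx68. The p-values therefore measure only how much these libraries vary, which may include technical variation.

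Total counts ran from 4289012 to 15646947 per library, and 36 to 42 of the 58 genes reached 1 CPM (counts-per-million of the library total) in each lung library, against 19 to 37 in brain and 26 to 44 in bone. The brain and lung labels were matched by their markers. The summed level of 5 neuron and astrocyte genes was 1647 to 3103 CPM in brain and 1.62 to 57.1 CPM in lung. In exposed bone this sum ran from 4.66 to 319 CPM. That of 4 alveolar genes was 128 to 4363 CPM in lung and at most 6.06 CPM in bone. The sum of 4 osteoblast genes overlapped between exposed bone (25.7 to 594 CPM) and exposed brain (20.3 to 28.8 CPM). Lymphocyte markers summed to at most 8.78 CPM in exposed brain, with Cd3e, Cd8a, Ms4a1 and Ncr1 at 0 counts there, and to at most 106 CPM in bone. Because these are bulk samples, fewer cells of a type and less RNA per cell cannot be told apart in any of the values that follow. Ccl21b and Ccl27b, near-identical copies of Ccl21a and Ccl27a, had 0 counts in all 30 libraries, so reads of these pairs are uncertain. Ccl1, Ccl26, Xcl1 and Ccr8 were also close to absent, with 10, 5, 13 and 7 counts over all libraries.

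The first comparison concerned tumour-free tissue. Most chemokine genes were lower in tumour-free brain than in tumour-free lung: of 44 genes that passed the filter on low counts, 33 were lower and 6 higher by edgeR's quasi-likelihood test with Benjamini-Hochberg adjustment at 0.05. Over all 18859 genes tested, 34.6% were lower and 37.4% higher, and the median log2 fold change was 0.06 against -4.46 for the 44. Against bone, brain was lower for 26 of the 44 and higher for 7, beside 37.0% and 38.9% of all genes, and the median log2 fold change was -2.34 against 0.04 over all genes. Lung exceeded bone for 23 of the 44 and was below it for 7, beside 22.3% and 22.5% of all genes, with a median of 0.88 against -0.00. The 14 genes under the filter were Ccl1, Ccl19, Ccl20, Ccl21b, Ccl24, Ccl26, Ccl27b, Ccr3, Ccr4, Ccr8, Cxcl5, Cxcl11, Cxcr3 and Xcl1. Other gene groups moved with the brain difference. Monocyte and macrophage markers summed to 489 and 782 CPM in tumour-free brain, 6014 and 4391 CPM in lung and 3546 to 3753 CPM in bone. Immediate early genes, which tissue dissociation can induce, summed to 464 and 1017 CPM, 7571 and 7966 CPM, and 9369.9 to 10046 CPM. The part of these groups in the chemokine differences was not tested. These 3 comparisons share their control libraries and are not independent of each other.

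The neutrophil-attracting CXC ligands differed widely between tissues. Cxcl2, which binds Cxcr2 on neutrophils, was read at 0.638 and 3.33 CPM in the 2 brain libraries, at 1038 and 900.1 CPM in lung and at 155, 339 and 307 CPM in bone. No tissue overlapped another. The log2 fold change of brain against lung was -9.03 ± 0.62 (SE) with an adjusted p of 2.13e-06 in edgeR's test with Benjamini-Hochberg adjustment. Cxcl1 followed the same order, with 0.319 and 1.33 CPM in brain, 133 and 139 CPM in lung and 82.5, 50.1 and 65.8 CPM in bone. Cxcl3 had 0 counts in both brain libraries, 22.2 and 20.3 CPM in lung and 1.08, 0.753 and 0.926 CPM in bone. With a floor of 3 counts over the brain group, Cxcl3 was at least 97.6-fold higher in lung and at least 4.22-fold higher in bone than in brain. Cxcl15, a chemokine of the lung epithelium, was at 15.0 and 19.1 CPM in lung and at 0 counts in every brain and bone control, at least 78.1-fold above brain and at least 195-fold above bone.

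Cxcl5, Cxcl3, Cxcl15, Cxcl1 and Cxcl2 lie in the same region of chromosome 5 of GRCm38, from 90759360 to 90905938. Promoter sequences are shown for the 3 that bind Cxcr2 and had an entry in the RefSeq promoter table (GRCm38.p6), since they share their direction between tissues. Capitals mark matches to the NF-kB motif, the site of the transcription factor that switches on inflammatory genes. Each stretch is 80 bases long and lies on the plus strand, at chr5:90891125-90891204 for Cxcl1, chr5:90903759-90903838 for Cxcl2 and chr5:90785981-90786060 for Cxcl3.
Cxcl1: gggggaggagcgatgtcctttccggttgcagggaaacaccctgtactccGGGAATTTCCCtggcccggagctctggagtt
Cxcl2: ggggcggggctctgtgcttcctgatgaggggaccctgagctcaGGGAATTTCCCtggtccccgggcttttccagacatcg
Cxcl3: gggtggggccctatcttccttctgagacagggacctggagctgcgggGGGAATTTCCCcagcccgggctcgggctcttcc
All 3 hold the same run of 11 bases, which matched on both strands with overlapping matches. The motif was searched by its consensus on both strands in the 250 bases before each start. It was found in 3.9% of 32851 promoter windows, in 4.46% of the 27025 genes these windows belong to, and in 9 of the 43 chemokine genes with an entry (Ackr2, Ccl20, Ccl9, Ccr3, Ccr6, Cxcl1, Cxcl10, Cxcl2 and Cxcl3). A match describes the letters in this window and is no evidence that the factor binds there.

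The receptors for these ligands differed between tissues as well. Cxcr2, which draws neutrophils toward Cxcl1 and Cxcl2, was at 0.797 and 1.20 CPM in brain, 101 and 109 CPM in lung and 156, 193 and 177 CPM in bone. Bone was above lung (log2 fold change of lung against bone -0.71 ± 0.13, adjusted p = 0.000643 in edgeR's test with Benjamini-Hochberg adjustment). Its neighbour on chromosome 1, Cxcr1, had 55.5 and 20.6 CPM in lung, 0 counts in brain and 1 bone library with reads (0.154 CPM). Cxcr1 was thus at least 175-fold higher in lung than in brain. Cxcr4, the receptor of Cxcl12 that retains leukocytes in the marrow, was at 4.94 and 6.93 CPM in brain, 469.6 and 429 CPM in lung and 347, 414 and 446 CPM in bone. Lung and bone did not differ beyond their spread for Cxcr4 (log2 fold change 0.19 ± 0.15, adjusted p = 0.326 in edgeR's test with Benjamini-Hochberg adjustment). Per kb of exon, Cxcl2 (469 CPM per kb), Ccl6 (348) and Cxcr4 (248) had the highest mean levels of the 58 genes in tumour-free lung, and Cxcr4 (223), Cxcl2 (129) and Cxcr2 (57.6) in tumour-free bone. Neutrophil markers summed to 16.9 and 17.7 CPM in brain, 761 to 814 CPM in lung and 29509 to 39154 CPM in bone, so the marker order for lung and bone differed from that of Cxcl2. The part of cell composition in these tissue differences was not tested.

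**Figure D1:**
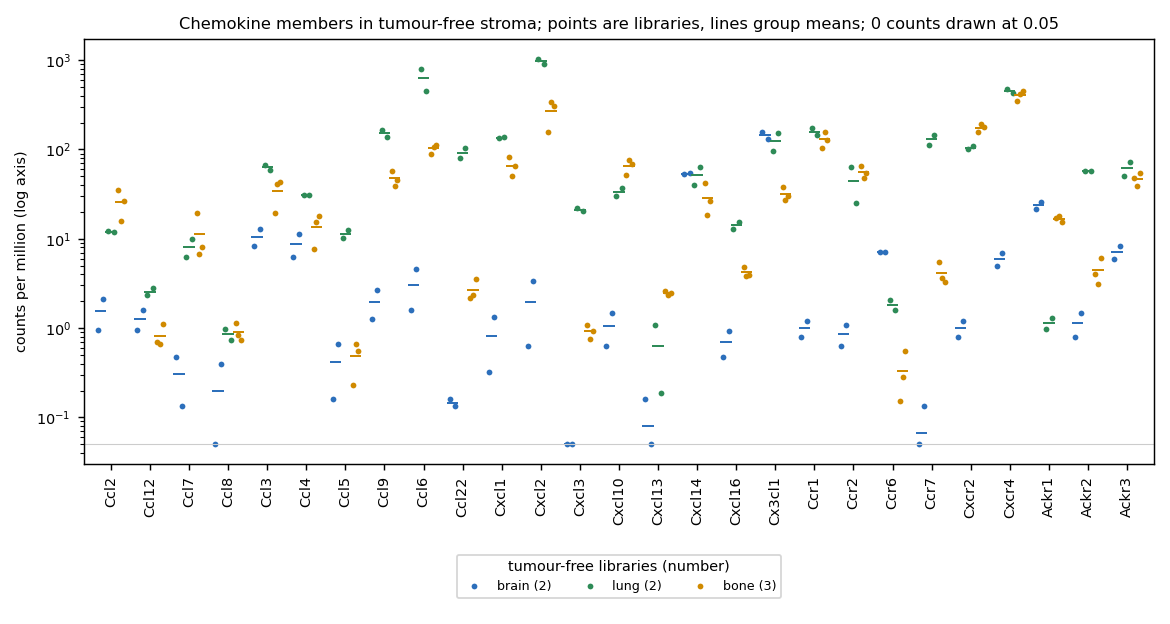
Counts-per-million (log axis) of 27 chemokine genes in tumour-free stroma. Each point is 1 library (2 brain, 2 lung, 3 bone), lines are group means, and 0 counts are drawn at 0.05. Brain lies below lung and bone for Cxcl2, Cxcr2 and Cxcr4, and above both for Ccr6.

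Several chemokine genes known from dendritic cells were highest in lung. Ccl22, a ligand of Ccr4 made by dendritic cells and macrophages, was at 80.8 and 104 CPM in lung, 2.16, 2.35 and 3.52 CPM in bone and 0.159 and 0.133 CPM in brain. Its log2 fold change of lung against bone was 5.14 ± 0.19 (adjusted p = 1.65e-09 in edgeR's test with Benjamini-Hochberg adjustment). Ccr7, the receptor that brings mature dendritic cells to lymph nodes, was at 112 and 147 CPM in lung, 5.47, 3.67 and 3.24 CPM in bone and 0 and 0.133 CPM in brain. Ccl17, a ligand of the same receptor as Ccl22, was at 15.0 and 20.3 CPM in lung and below 1 CPM in every brain and bone control library. The 6 dendritic cell markers did not all follow this order. Their sum was 643 and 469 CPM in lung, 96.8 to 121 CPM in bone and 89.3 to 112 CPM in brain, and most of the lung sum was Itgax (478 and 301 CPM). Clec9a and Zbtb46 were also highest in lung. Flt3 was at 25.7 and 24.0 CPM in lung, within the 16.5 to 32.0 CPM of bone, Siglech was lower in lung than in brain and bone, and Cd209a overlapped between lung and bone. Xcr1, the receptor of cross-presenting dendritic cells, was at 4.84 and 5.21 CPM in lung and at most 1.31 CPM in bone and 0.159 CPM in brain. The CC ligands Ccl6 and Ccl9, which bind Ccr1, were also highest in lung: Ccl6 was at 799 and 450.1 CPM there, at 90.1, 106 and 112 CPM in bone and at 1.59 and 4.53 CPM in brain. Ackr2, which scavenges inflammatory CC ligands, was at 57.5 and 57.6 CPM in lung, 4.08, 3.11 and 6.11 CPM in bone and 0.797 and 1.47 CPM in brain.

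A smaller set was highest in brain or bone. Ccr6, the receptor of Ccl20, was at 7.18 and 7.20 CPM in brain, 2.06 and 1.58 CPM in lung and 0.154, 0.282 and 0.555 CPM in bone. Brain exceeded bone by a log2 fold change of 4.29 ± 0.43 for Ccr6 (adjusted p = 1.34e-06 in edgeR's test with Benjamini-Hochberg adjustment). Ccl25, Ccl27a and Ccl28, ligands of Ccr9 and Ccr10 in gut and skin, were higher in brain than in lung and bone by log2 fold changes of 1.60 to 3.63. Cx3cl1, the membrane-bound ligand of the microglial receptor Cx3cr1, was at 157 and 130 CPM in brain, 96.5 and 152 CPM in lung and 37.7, 27.1 and 30 CPM in bone. Brain and lung overlapped for Cx3cl1 (log2 fold change 0.03 ± 0.20, adjusted p = 0.886 in edgeR's test with Benjamini-Hochberg adjustment), and both were above bone. Bone was highest for the interferon-induced ligand Cxcl10, with 52.0, 76.9 and 68.3 CPM against 30.1 and 36.9 CPM in lung and 0.638 and 1.47 CPM in brain.

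Ackr1, which carries chemokines across the wall of small veins, split the tissues in another way. It was at 21.4 and 26.1 CPM in brain, 16.9, 18.0 and 15.5 CPM in bone and 0.986 and 1.30 CPM in lung. Brain and bone differed by a log2 fold change of 0.36 ± 0.17 (adjusted p = 0.0745 in edgeR's test with Benjamini-Hochberg adjustment). Of the exon bases of Ackr1, 25.7% overlap those of Cadm3 on the same strand, and the sources used here do not say how the counting treated such reads. Ccl2, the main ligand of Ccr2, was at 35.4, 16 and 26.2 CPM in bone, 12.1 and 12 CPM in lung and 0.957 and 2.13 CPM in brain. Its call between lung and bone (log2 fold change -1.07 ± 0.29, adjusted p = 0.00982 in edgeR's test with Benjamini-Hochberg adjustment) was lost without lung control replicate 1 (adjusted p = 0.067) or replicate 2 (0.0775). The call for Cxcl14 between brain and bone (log2 fold change 0.74 ± 0.30, adjusted p = 0.0486 in the same edgeR test) was lost when bone control replicate 2 or 3 or either brain control was left out, with adjusted p from 0.0652 to 0.19, and with the replicate block (0.193). Cxcl13 between lung and bone lost its call without lung control replicate 2 (adjusted p = 0.139).

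Ccr1 and Ccr2, receptors carried by monocytes, were lower in tumour-free brain than in lung or bone. Ccr1 was at 0.797 and 1.20 CPM in brain, 172 and 145 CPM in lung and 103, 158 and 128 CPM in bone, and Ccr2 at 0.638 and 1.07 CPM, 64.2 and 25.3 CPM, and 65.8, 47.9 and 54.4 CPM. Lung and bone overlapped for both (adjusted p = 0.163 and 0.537 in edgeR's test with Benjamini-Hochberg adjustment). Ccl3 was at 8.29 and 12.8 CPM in brain, 66.8 and 58.9 CPM in lung and 19.2, 40.8 and 43.7 CPM in bone. Ccl5, a ligand of Ccr1, was highest in lung, with 10.2 and 12.5 CPM there and at most 0.666 CPM in either of the other tissues. Ccl11, the eotaxin that binds Ccr3 on eosinophils, had its highest level in bone (14.9, 10.5 and 12.5 CPM), with 2.96 and 4.56 CPM in lung and 0 and 0.133 CPM in brain. Cxcl9, like Cxcl10 a ligand of Cxcr3, was also highest in bone (14.9, 9.51 and 11 CPM against at most 2.23 CPM elsewhere). Ccl21a, which binds Ccr7, had 0 counts in brain, at least 91.7-fold below lung and at least 45.8-fold below bone. Of 28 genes of chemokine receptor signalling, 21 were lower and 1 higher in brain than in lung, 22 lower and 5 higher than in bone, and 12 were higher and 10 lower in lung than in bone by edgeR's test with Benjamini-Hochberg adjustment. Of 17 inducers of chemokine genes, 17 and 16 were lower in brain than in lung and bone. The shares over all genes were 34.6% lower and 37.4% higher for brain against lung, 37.0% and 38.9% for brain against bone, and 22.3% higher and 22.5% lower for lung against bone. Irf1, an interferon-induced transcription factor, had 13.3 ± 2.74 CPM (SD, n = 2) in brain, 542 ± 29.7 CPM (SD, n = 2) in lung and 581 ± 63.3 CPM (SD, n = 3) in bone.

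The second comparison asked how brain stroma beside Brx50 tumours differs from tumour-free brain stroma. The inflammatory CC ligands and the CC receptors had higher fitted levels in exposed brain: all 9 tested inflammatory CC ligands (median log2 fold change 2.64) and all 6 tested CC receptors (median 3.11). Over the 34 genes tested, 28 were fitted higher (82.4%) and the median log2 fold change was 2.15, beside 51.6% and 0.03 over all 16734 genes. None of the 34 passed an adjusted p of 0.05 in edgeR's test with Benjamini-Hochberg adjustment, where 0.00598% of all genes (1 gene) did. The other 24 genes, which did not pass the filter on low counts, were Ccl1, Ccl11, Ccl17, Ccl19, Ccl20, Ccl21a, Ccl21b, Ccl24, Ccl26, Ccl27b, Cxcl1, Cxcl3, Cxcl5, Cxcl9, Cxcl11, Cxcl15, Xcl1, Ccr3, Ccr4, Ccr8, Ccr9, Cxcr1, Cxcr3 and Xcr1. Genes that pass it only through their high libraries must be fitted that way, so these counts are a description. At an unadjusted p of 0.05 the edgeR test held 16 of the 34 higher and 0 lower, beside 9.14% of all genes higher and 4.44% lower. In 15 of the 34 every exposed library lay above every control and in 2 every exposed library lay below, beside 19.9% and 18.6% of all genes. DESeq2 called 13 of the 27 genes it gave an adjusted p (4.82% of all genes it tested), limma-voom with quality weights 12 (5.37%), and edgeR without the filter on low counts 5 (1.00%). All these calls were higher in exposed brain. Genes called by both DESeq2 and limma-voom included Ccl2, Ccl3, Ccl4, Ccl5, Ccl12, Cxcl10, Ccr1, Ccr2 and Cxcr4.

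Of the CC ligands, Ccl3 and Ccl4, which attract monocytes and are made by activated microglia and macrophages, had the highest levels. Ccl3 was at 8.29 and 12.8 CPM in control brain and at 48.5, 59.2 and 33.3 CPM in exposed brain (log2 fold change 2.09 ± 0.36, adjusted p = 0.21 in edgeR's test with Benjamini-Hochberg adjustment, 0.000217 in DESeq2). Ccl4 was at 6.22 and 11.3 CPM in controls and 37.8, 64.2 and 24.7 CPM in exposed brain. Every exposed library lay above every control for both. Per kb of exon, Ccl4 (64.0 CPM per kb) and Ccl3 (61.3) had the highest mean levels of the 58 genes in exposed brain, where in control brain Cx3cl1 (36.4) and Cxcl14 (29.2) did. Both genes lie on chromosome 11 of GRCm38 with Ccl5, Ccl9 and Ccl6, between 83525778 and 83664683. Ccl5, which attracts monocytes and T cells, was at 0.159 and 0.666 CPM in controls and 6.53, 3.41 and 9.82 CPM in exposed brain. Ccl9 was at 1.28 and 2.67 CPM in controls and 5.83, 18.9 and 8.71 CPM in exposed brain.

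The monocyte-attracting ligands of Ccr2 lie in a second group on chromosome 11, between 82035571 and 82305690. Ccl2 was at 0.957 and 2.13 CPM in control brain and at 11, 9.29 and 10.1 CPM in exposed brain, so that the 3 exposed libraries differed little from each other. Its log2 fold change was 2.64 ± 0.63 (adjusted p = 0.248 in edgeR's test with Benjamini-Hochberg adjustment, 0.0227 in limma-voom). Ccl12, a further ligand of Ccr2, was at 0.957 and 1.60 CPM in controls and 11.2, 6.19 and 23.3 CPM in exposed brain. Ccl7 was at 0 counts in 1 exposed library and its groups overlapped. Ccl8 was at 0 and 0.4 CPM in controls and 0.792 to 3.03 CPM in exposed brain.

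Ccr1 and Ccr2, receptors of these ligands, showed the same order of groups. So did Ccr6 and Ccr7, but their ligands Ccl20 and Ccl21a did not pass the filter on low counts in brain. Ccr1, the receptor of Ccl3, Ccl5 and Ccl9 on monocytes and neutrophils, was at 0.797 and 1.20 CPM in control brain and 14.5, 39.9 and 20.1 CPM in exposed brain. Its log2 fold change, 4.53 ± 0.62, had the smallest p of the 58 genes (adjusted p = 0.21 in edgeR's test with Benjamini-Hochberg adjustment, 1.52e-07 in DESeq2). Ccr2, the receptor of inflammatory monocytes, was at 0.638 and 1.07 CPM in controls and 4.66, 43.4 and 25.5 CPM in exposed brain. Ccr6 was at 7.18 and 7.20 CPM in controls and 22.4, 41.2 and 7.92 CPM in exposed brain, with replicate 3 close to the controls. Ccr7 was at 0 and 0.133 CPM in controls and 0.466, 4.44 and 17.3 CPM in exposed brain. Without exposed replicate 1, edgeR called 3 chemokine genes (Ccr1, Ccr2 and Cxcr4), with adjusted p of 0.0466, 0.0348 and 0.0404. Over all 16474 genes tested in that setting it called 69, against 1 with all brain libraries.

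The CXC genes described next differed several-fold between the exposed libraries. Cxcr4 was at 4.94 and 6.93 CPM in controls and 13.3, 74.4 and 48.9 CPM in exposed brain (log2 fold change 2.87 ± 0.71, adjusted p = 0.248 in edgeR's test with Benjamini-Hochberg adjustment). Cxcl2 was at 0.638 and 3.33 CPM in controls and 1.87, 44.6 and 23.4 CPM in exposed brain, so replicate 1 lay between the controls. Cxcr2 was at 0.797 and 1.20 CPM in controls and 0, 31.5 and 3.17 CPM in exposed brain. Among the 3 exposed libraries, neutrophil markers were in the same order, with sums of 25.2, 3767 and 123 CPM. The controls had 16.9 and 17.7 CPM, so replicate 1 lay above both in this sum and below both in Cxcr2. Cxcl16, the ligand of Cxcr6, was at 0.478 and 0.933 CPM in controls and 2.10, 7.23 and 9.82 CPM in exposed brain. Cxcl13, which attracts B cells through Cxcr5, was at 0.159 and 0 CPM in controls and 0, 6.81 and 18.8 CPM in exposed brain. Exposed replicate 1 was the lowest exposed library for Cxcl2, Cxcl10, Cxcl13, Cxcl16, Ccr2, Ccr7, Cxcr2 and Cxcr4.

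Cxcl10, the interferon-induced ligand of Cxcr3, was at 0.638 and 1.47 CPM in control brain and 2.56, 14.7 and 23.4 CPM in exposed brain. Its log2 fold change was 3.60 ± 1.05 (adjusted p = 0.287 in edgeR's test with Benjamini-Hochberg adjustment, 0.0144 in DESeq2). It lies on the minus strand of chromosome 5, next to Cxcl9 and Cxcl11. Its promoter is shown because both motifs searched occur in it. The stretch is chr5:92348975-92349114 (GRCm38.p6, RefSeq), written along the gene's strand. Capitals mark, from left to right, 1 match to the interferon response element letters GAAANNGAAA and 2 to the NF-kB motif.
Cxcl10: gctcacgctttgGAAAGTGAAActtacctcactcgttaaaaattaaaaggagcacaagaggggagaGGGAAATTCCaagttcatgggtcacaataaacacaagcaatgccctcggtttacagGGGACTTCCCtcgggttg
The letters GAAANNGAAA, on either strand, were found in 2.98% of the 32851 windows, in 3.46% of the 27025 genes and in 3 of the 43 chemokine genes with an entry (Ccl19, Cxcl10 and Cxcl14). Cxcl14, with a match of the same kind, was at 52.5 and 54.2 CPM in control brain and 41.0, 80.6 and 75.2 CPM in exposed brain, and its groups overlapped. Cxcr3, the receptor of Cxcl10, was at 0 counts in both controls and at 9, 0 and 8 counts in the 3 exposed libraries. The mean of the exposed group was at least 5.15-fold higher, but exposed replicate 2 had 0 counts like the controls. Cxcr3 did not pass the filter on low counts.

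**Figure D2:**
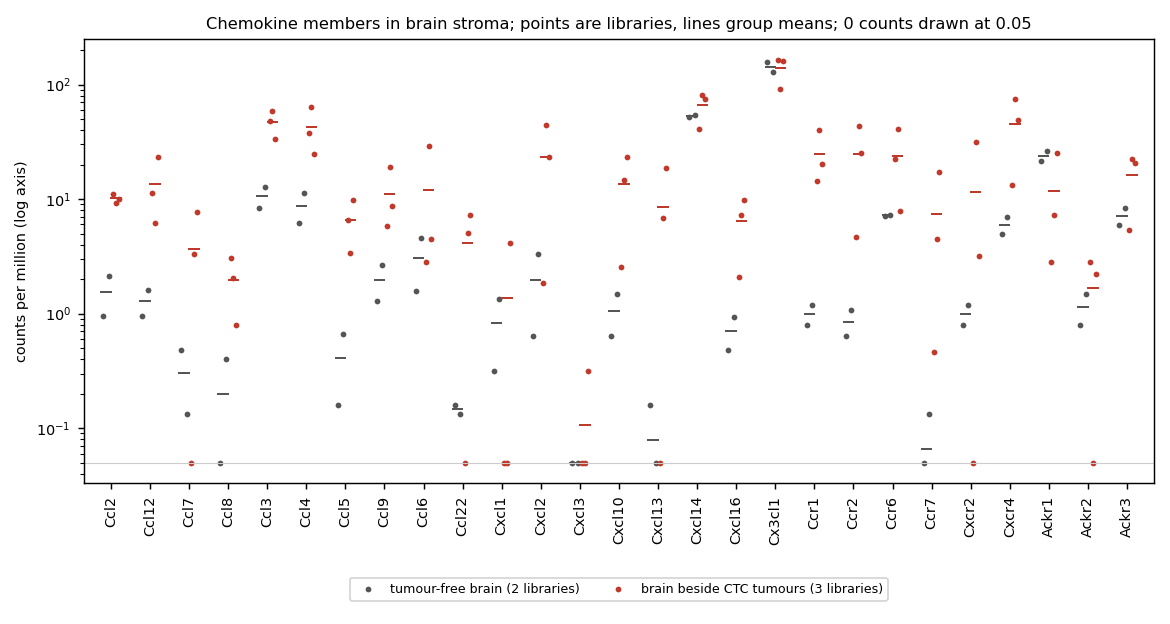
Counts-per-million (log axis) of 27 chemokine genes in brain stroma. Each point is 1 library (2 tumour-free, 3 beside Brx50 tumours), lines are group means, and 0 counts are drawn at 0.05. All exposed libraries lie above both controls for Ccl2, Ccl3 and Ccr1, and the groups overlap for Cx3cl1, Cxcl14 and Ackr1.

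Other chemokine genes of the brain overlapped between the groups or were lower in exposed libraries. Cx3cl1 was at 157 and 130 CPM in controls and 165, 91.4 and 159 CPM in exposed brain (log2 fold change -0.09 ± 0.34, adjusted p = 0.935 in edgeR's test with Benjamini-Hochberg adjustment). Ackr1 was at 21.4 and 26.1 CPM in controls and 2.80, 7.23 and 25.3 CPM in exposed brain, overlapping in replicate 3. Ccl28, Cxcl17, Ccl24 and Ccr9 were below both controls in all 3 exposed libraries, the last 2 under the filter on low counts. Ccl24 had 5 counts in the controls and 0 in exposed brain, too few to bound a fold change.

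Values of other gene groups moved with these differences. Monocyte and macrophage markers (10 genes) summed to 489 and 782 CPM in control brain and 2775, 3995 and 1811 CPM in exposed brain. Microglia markers (6 genes) summed to 357 and 448 CPM in controls and 1283, 1586 and 427 CPM in exposed brain, so replicate 3 lay within the controls. Immediate early genes summed to 464 and 1017 CPM in controls and 1829, 2844 and 1822 CPM in exposed brain. Neuron and astrocyte markers summed to 3103 and 2661 CPM in controls and 1647, 2027 and 1979 CPM in exposed brain. Fibroblast markers summed to 125 and 135 CPM in controls and 183, 1373 and 1806 CPM in exposed brain, and epithelial markers to 5.26 and 10.7 CPM and 16.6, 83.1 and 47.7 CPM. The part of these groups in the chemokine values was not tested. Genes detected numbered 16344, 19139 and 23074 in the exposed libraries and 23736 and 24146 in the controls.

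Genes that act after the receptors or upstream of the ligands were taken from lists. Of 28 genes of chemokine receptor signalling, 21 were fitted higher in exposed brain (median log2 fold change 0.95). None passed the adjusted threshold, and 13 had an unadjusted p under 0.05 with higher levels and 1 with lower in edgeR's test. Was, which drives actin branching in leukocytes, had 4.35 ± 1.19 CPM (SD, n = 2) in controls and 20.0 ± 7.14 CPM (SD, n = 3) in exposed brain. All 15 tested genes of the list of chemokine gene inducers (17 in the list) were fitted higher, with a median of 1.70, and 12 had an unadjusted p under 0.05 in edgeR's test, none adjusted. Over all genes 51.6% were fitted higher, and 9.14% were higher and 4.44% lower at that unadjusted p. Cebpb, a transcription factor of inflammatory genes, had 6.79 ± 1.71 CPM (SD, n = 2) in controls and 54.1 ± 25.5 CPM (SD, n = 3) in exposed brain. Nfkbia, the NF-kB inhibitor that NF-kB itself induces, had 34.9 ± 15.9 CPM (SD, n = 2) and 124 ± 38.4 CPM (SD, n = 3).

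**Figure D3:**
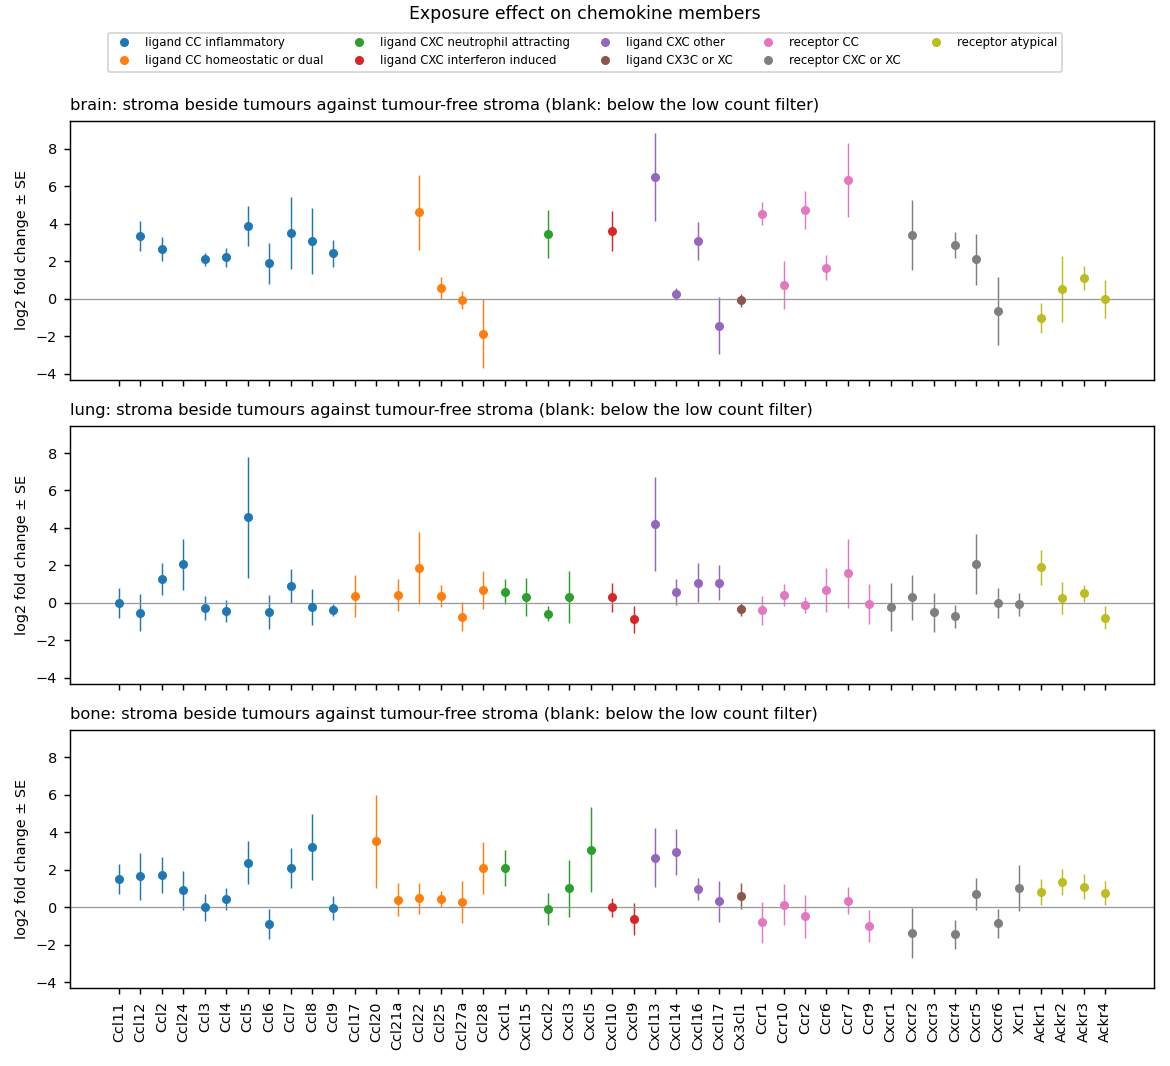
Log2 fold changes of exposed against tumour-free stroma with standard errors (edgeR) for each chemokine gene reported that passed the filter on low counts in brain, lung or bone, coloured by role. Fitted values of the inflammatory CC ligands and CC receptors lie above 0 in brain, and values in lung and bone lie on both sides of 0 with wide errors.

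Whether the exposure effect differed between tissues was tested as a difference of differences over all 30 libraries. None of 51 chemokine genes passed an adjusted p of 0.05 in edgeR's test for brain minus lung, brain minus bone or lung minus bone, where 0% of all 21233 genes did in each. At an unadjusted p of 0.05 the edgeR test held 11 of the 51 for brain minus lung (9 higher, 2 lower, beside 3.95% of all genes), 10 for brain minus bone (9 higher, 1 lower, 8.34%) and 0 for lung minus bone (1.12%). Cxcl10 had the smallest p in both brain contrasts, with a difference in log2 fold change of 3.30 ± 1.23 against lung and 3.58 ± 1.18 against bone (adjusted p = 1.0 and 0.513 in edgeR's test with Benjamini-Hochberg adjustment). Cxcr4 followed in brain minus bone with 4.26 ± 1.44 (adjusted p = 0.548 in the same edgeR test). For brain minus lung, limma-voom called 11 genes (2.14% of all genes) and DESeq2 0 (0.483%). For brain minus bone, limma-voom called 6 (7.75%) and DESeq2 1, Cxcr4 (1.58%). DESeq2 gave an adjusted p for 13 of these 51 genes in brain minus lung and 14 in brain minus bone, so its counts cover only those. For lung minus bone both called 0 (1.50% of all genes by limma-voom, 0.0472% by DESeq2). The 7 untested genes were Ccl1, Ccl21b, Ccl26, Ccl27b, Ccr4, Ccr8 and Xcl1. Both brain contrasts rest on the same 5 brain libraries.

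The third comparison set lung stroma beside tumours of 4 CTC lines against tumour-free lung. No chemokine gene passed the test: of 46 tested, 0 passed an adjusted p of 0.05 in edgeR's test with Benjamini-Hochberg adjustment and 0 an unadjusted p of 0.05, beside 0% and 0.689% of all genes. DESeq2 and limma-voom called 0 as well, beside 0.0175% and 0.00584% of all genes. The median log2 fold change was 0.30 with 27 of 46 fitted higher (58.7%), beside 0.08 and 61.2% over all genes. The 12 untested genes were Ccl1, Ccl19, Ccl20, Ccl21b, Ccl26, Ccl27b, Ccr3, Ccr4, Ccr8, Cxcl5, Cxcl11 and Xcl1. None of the 46 had every exposed library above every control or below, where 1.02% and 2.01% of all genes did. Ccl2 was at 12.1 and 12 CPM in controls and from 7.88 to 59.6 CPM (median 22.6) in exposed lung, and Cxcl1 at 133 and 139 CPM in controls and from 85.6 to 464 CPM (median 162). Cxcl2 was at 1038 and 900.1 CPM in controls and from 343 to 991 CPM (median 601) in exposed lung. Ackr1 had the smallest p (log2 fold change 1.90 ± 0.95, adjusted p = 1.0 in edgeR's test with Benjamini-Hochberg adjustment), with 0.986 and 1.30 CPM in controls and 0.706 to 11 CPM (median 2.61) in exposed lung. Of the receptor signalling list, 11 of 28 genes were fitted higher (median -0.19), and of the inducers 10 of 17 (median 0.06), with 0 past an adjusted or unadjusted p of 0.05 in edgeR's test.

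One lung library stood apart in many chemokine genes and in summed markers of other gene groups. Replicate 6, exposed to Brx50, was the highest of the 9 lung libraries for 19 of the 58 genes and the lowest for 14. The share of all genes at either extreme in this library was not counted. These counts therefore describe the library and do not set chemokine genes apart from other genes. Ccr7 was at 2021 CPM there, at 61.0 ± 14.1 CPM (SD, n = 6) in the other exposed libraries and at 112 and 147 CPM in controls. Ccl22 was at 1787 CPM there, at 50.5 ± 13.7 CPM (SD, n = 6) in the other exposed libraries and at 80.8 and 104 CPM in controls. Ccl5 was at 1576 CPM in replicate 6 and at most 14.1 CPM in the other 8 libraries. These 3 genes belong to the programme of mature dendritic cells, in which Ccr7 directs migration and Ccl22 and Ccl5 attract T cells. Cxcr5 (56.0 CPM against 3.25 ± 0.894, SD, n = 6), Cxcl3 (111 against 8.90 ± 7.41) and Cxcr2 (494 against 54.1 ± 43.1) were also far above the other exposed libraries. Genes below all other lung libraries there included Ccl6 (23.1 CPM against 514 ± 297), Ackr2 (4.30 against 79.1 ± 33.8), Cxcr1 (0.776 against 38.1 ± 30.6) and Ccl21a (1.69 against 30.4 ± 15.8). In replicate 6 endothelial markers summed to 170.4 CPM, where the other lung libraries had 1211 to 6659, and immediate early genes to 2507 CPM, where the others had 7241 to 12648. Dendritic cell markers went both ways there: Flt3 (164 CPM), Zbtb46 (151) and Siglech (19.3) were above all other lung libraries, Clec9a (8.26) and Cd209a (0.141) were below all of them, and Itgax was at 61.5 CPM against 56.4 to 541. The part of cell composition in this library was not tested.

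Lung values that rest on this library are given without it. The log2 fold change of Ccl5 was 4.57 ± 3.24 with replicate 6 and -0.51 without it. Ccl22 went from 1.89 ± 1.92 to -0.85 (unadjusted p = 0.00743, adjusted p = 0.999 in edgeR's test without the library). Ccr7 went from 1.59 ± 1.84 to -1.06 (unadjusted p = 0.00211, adjusted p = 0.999 in the same test). Every other exposed library was below both controls for both genes. The share of all genes with such an unadjusted p or such an order without replicate 6 was not counted. Ccr1 went from -0.40 to -1.05. Without replicate 6, edgeR's test with Benjamini-Hochberg adjustment again called 0 of the chemokine genes. DESeq2 replaced outlying counts of 7 chemokine genes in lung (Ccl5, Ccl17, Ccl22, Ccr6, Ccr7, Ccr9 and Cxcr5), which its default does in groups of 7 or more. A second library, replicate 1 (Brx07), was highest for Cxcl13 (63.5 CPM), Ccl7 (40.0), Ccl24 (11.7) and Cxcl17 (18.0), and its fibroblast markers summed to 42064 CPM, against 254 to 3056 CPM in the other lung libraries.

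**Figure D4:**
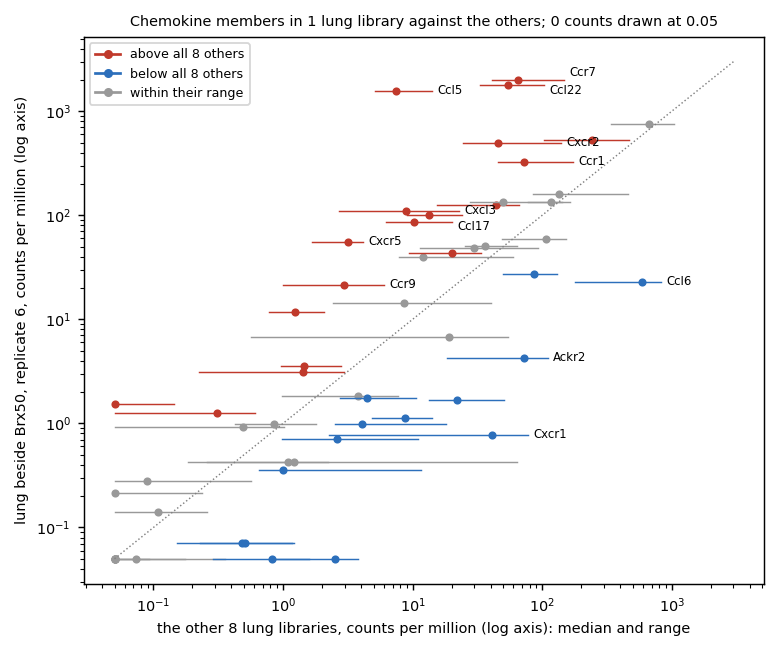
Counts-per-million in lung replicate 6 (vertical, log axis) against the median and range of the other 8 lung libraries (horizontal, log axis), 1 point per chemokine gene reported. Ccr7, Ccl22 and Ccl5 lie between 1576 and 2021 CPM, above all 8 others, and Ccl6, Ackr2 and Cxcr1 lie below them.

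The fourth comparison set 13 bone libraries beside tumours of 3 CTC lines against 3 tumour-free bone libraries. Fitted values were higher in exposed bone for 22 of 28 ligands and all 4 atypical receptors, and lower for Cxcr2, Cxcr4, Ccr1 and Ccr2, with wide spread between libraries. Of 43 genes tested, 0 passed an adjusted p of 0.05 in edgeR's test with Benjamini-Hochberg adjustment, beside 0% of all genes, and 2 (Cxcl14 and Cxcl1, both higher) an unadjusted p of 0.05, beside 2.51% of all genes. The other 15, which did not pass the filter on low counts, were Ccl1, Ccl17, Ccl19, Ccl21b, Ccl26, Ccl27b, Cxcl11, Cxcl15, Xcl1, Ccr3, Ccr4, Ccr6, Ccr8, Cxcr1 and Cxcr3. The median log2 fold change was 0.69 with 31 of 43 fitted higher (72.1%), beside 0.08 and 57.2% over all genes. No chemokine gene had all exposed libraries above or below all controls, where 0.0328% and 0.202% of all genes did. Here limma-voom with quality weights called 11 of the 43 (15.7% of all genes), with Ccl5, Ccl7, Ccl11, Cxcl1 and Cxcl14 higher and Ccl6, Ccr1, Ccr2, Ccr9, Cxcr2 and Cxcr4 lower. DESeq2 called 0 (0.0931% of all genes). It replaced outlying counts of Ccl20, Cxcl13 and Cxcl5 in its bone fit.

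Cxcl14, a CXC ligand of epithelium and fibroblasts, was at 41.6, 18.6 and 26.3 CPM in control bone and from 23.2 to 1112 CPM (median 90.2) in exposed bone. Its log2 fold change was 2.96 ± 1.24 (adjusted p = 0.97 in edgeR's test with Benjamini-Hochberg adjustment, 0.009 in limma-voom). The highest values, 1112, 525 and 355 CPM, were all in Brx68 libraries (replicates 12, 9 and 8). Cxcl1 was at 82.5, 50.1 and 65.8 CPM in controls and from 39.8 to 992 CPM (median 142) in exposed bone. Ccl2 was at 35.4, 16 and 26.2 CPM in controls and from 6.15 to 286 CPM (median 38.7). Ccl7, from the same part of chromosome 11, ran from 4.84 to 168 CPM (median 18.9) against 6.68 to 19.5 CPM in controls. Ccl8 was at 29.1, 21.9 and 34.0 CPM in replicates 8, 9 and 12 and at most 4.95 CPM in the other 10 exposed libraries, and Cxcl13 at 81.0, 35.7 and 35.1 CPM in the same 3 and at most 7.20 CPM in the others. Fibroblast markers summed to 30809, 50400 and 38754 CPM in these 3 libraries, from 4590 to 68157 CPM over the 13, and from 11054 to 20875 CPM in controls. Replicate 3 had the highest fibroblast sum, with 473 CPM of Cxcl1 and 3.97 CPM of Cxcl13.

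Cxcr2, Ccr1 and Ccr2, receptors of marrow leukocytes, split the exposed bone libraries. Cxcr2 was at 156, 193 and 177 CPM in controls and from 0.781 to 289 CPM (median 5.2) in exposed bone. It was between 108 and 289 CPM in replicates 1, 4, 5, 10 and 11 and at most 8.70 CPM in the other 8. Neutrophil markers split the libraries the same way, with sums of 19220.5 to 53667 CPM in those 5 and 2.83 to 2335 CPM in the other 8. Cxcr4 was at 347, 414 and 446 CPM in controls and from 19.4 to 428 CPM (median 88.0) in exposed bone (log2 fold change -1.45 ± 0.77, adjusted p = 0.97 in edgeR's test with Benjamini-Hochberg adjustment, 0.0067 in limma-voom). It did not split the libraries this way, with 149.7 CPM in replicate 8 and 149 CPM in replicate 11. Ccr1 was at 103 to 158 CPM in controls and from 3.87 to 319.5 CPM (median 21.4) in exposed bone, and Ccr2 at 47.9 to 65.8 CPM and from 0 to 178 CPM (median 19.7). Ccl6, a ligand of Ccr1, was at 90.1 to 112 CPM in controls and from 5.99 to 153 CPM (median 39.3). The part of marrow content in these values was not tested. Among the atypical receptors, Ackr3, which removes Cxcl12, was at 38.5 to 54.1 CPM in controls and from 24.0 to 239.7 CPM (median 80.8) in exposed bone. Of the signalling list 5 of 28 genes were fitted higher (median -0.70) and of the inducers 6 of 17 (median -0.21), with 0 past an adjusted or unadjusted p of 0.05 in edgeR's test. Over all genes 57.2% were fitted higher.

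**Figure D5:**
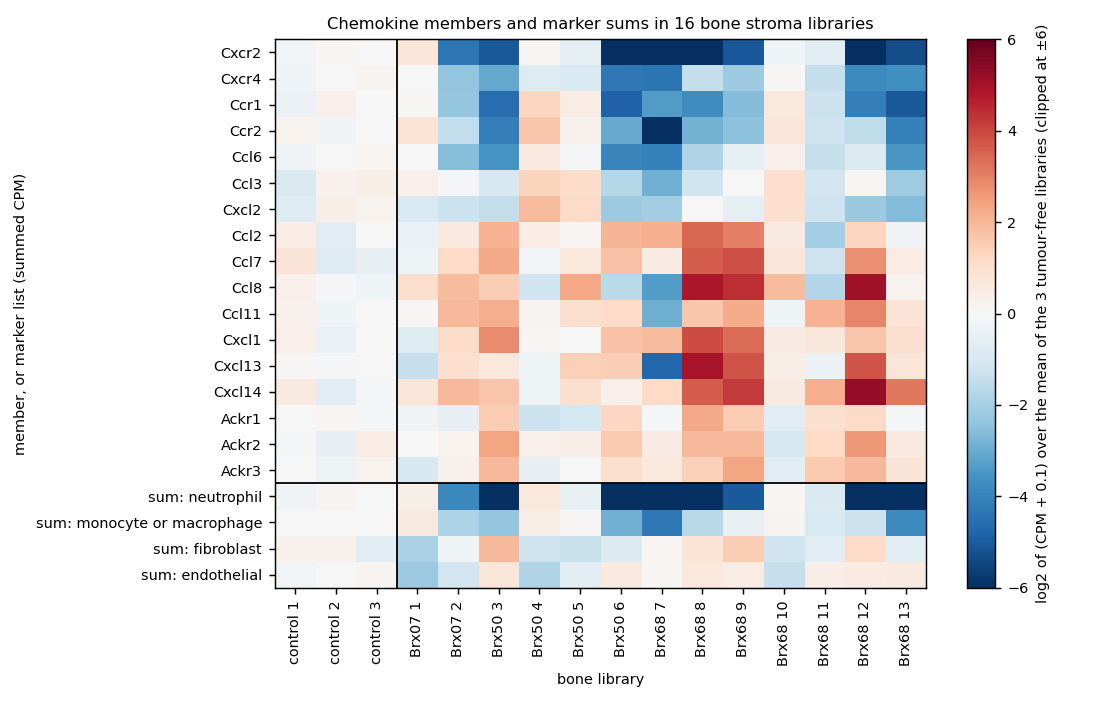
Log2 ratio of each bone library to the mean of the 3 tumour-free libraries (counts-per-million plus 0.1, clipped at 6 in either direction) for 17 chemokine genes and 4 summed marker lists. Columns are the 3 control and 13 exposed libraries with their CTC line. Cxcr2 and the neutrophil sum are both lower in libraries 2, 3, 6, 7, 8, 9, 12 and 13 than in the other exposed libraries. Ccl7, Cxcl13 and Cxcl14 are highest in Brx68 libraries 8, 9 and 12, and Ccl2 is highest in 8 and 9.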

How the data were processed

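The values are raw counts in 1 table with 30 library columns, and they were used as the authors deposited them. STAR 2.5.2b, HTSeq and the builds GRCm38.p5, mm10, GRCh37 and hg19 are named per the submitters' processing notes. The sources used here give no annotation, no strand setting and no way of separating human reads, so reads of overlapping and antisense genes cannot be told apart (10 of the 58 genes overlap another gene's exons, 3 of them over more than 20% of their length). Symbols came from the GRCm38 annotation, and 884 IDs without a symbol (0.1324% of counts) stayed in the tests.

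The main test was the two-sided quasi-likelihood test of edgeR 4.0.16 (R 4.3.3) with TMM scaling, the default filter on low counts and Benjamini-Hochberg adjustment over all genes, at 0.05. Each tissue was fitted alone for exposure, the 7 control libraries for tissue and all 30 for differences between tissues, with CTC lines pooled. CPM are counts-per-million of the unscaled library total, and per kb values divide them by exon length. Where a group had 0 counts, a floor of 3 counts over the group gave the bound. Alternatives were DESeq2 1.42.0, limma-voom (limma 3.58.1) with quality weights, other scaling, no filter, 1 library left out, both Brx07 bone libraries summed and a replicate block. The edgeR steps were tested on simulated data.

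Control replicates follow the labels, and exposed replicates follow accession order. The 58 genes and the marker and pathway lists were chosen with earlier results of these data known. Genes named are, per comparison, up to 20 past the threshold, up to 8 per direction with the smallest p and at least 1 CPM, and those with a mean of at least 20 CPM in any group. Genes outside this rule (Ccl1, Ccl8, Ccl20, Ccl24, Ccl26, Ccr8, Ccr9, Cxcl5, Cxcl11, Cxcl13, Cxcr3, Cxcr5 and Xcl1 in some comparisons) were named after their values were seen. Of the 58 genes, 1 is counted in the totals and is not reported here by name. Promoters came from RefSeq (43 of 58 genes had an entry). Library totals of 4289012 to 15646947 counts set the precision, and bounds cover counting error only.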

Additional observations from a re-analysis of the deposited data

Results flagged for a closer look

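Dixon's test for a single outlying value was applied to 47 gene and group pairs of 4 to 10 libraries, all in exposed lung, the one group of that size, and 18 genes had a highest library past the critical value for 7 libraries. At its nominal level the test flags about 1 in 20 such groups. The rate over all genes in these libraries was not counted, so the 18 do not set chemokine genes apart from other genes. In 14 of the 18 the outlying library was lung replicate 6 (Brx50): Ccr7 at 2021 CPM, Ccl22 at 1787, Ccl5 at 1576, Cxcr2 at 494, Ccr1 at 327, Ccl3 at 126, Cxcl3 at 111, Cxcl16 at 100.4, Ccl17 at 86.1, Cxcr5 at 56.0, Ccr9 at 21.5, Ccr6 at 11.7, Cxcl11 at 1.55 and Cxcl5 at 1.27 CPM. In the other 4 it was lung replicate 1 (Brx07): Cxcl13 at 63.5 CPM, Ccl7 at 40.0, Cxcl17 at 18.0 and Ccl24 at 11.7 CPM. Genes of 1 library are not independent of each other.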

How the results depend on the processing

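Counts of called chemokine genes moved by more than 1.5 times with the tool, with the filter or without 1 library. Other scaling moved them by at most 2 (tumour-free brain against lung, 39 to 37 with upper quartile scaling, and brain against bone, 33 to 34). In brain exposure, edgeR's 0 of 34 became 5 without the filter on low counts, 13 with DESeq2, 12 with limma-voom, and 0 to 3 when 1 library was left out. In bone exposure it became 11 with limma-voom. For the difference between brain and lung effects limma-voom gave 11, and for brain and bone DESeq2 gave 1 and limma-voom 6; the cause was not tested. Of 191 log2 fold changes of single genes, 33 changed sign under at least 1 alternative, none past the adjusted threshold in that alternative. Ranges that follow are over omissions of 1 library. In brain exposure, limma-voom gave Ackr2 (0.50) as -0.10, Ccl27a (-0.08) as 0.05 and Cx3cl1 (-0.09) as 0.03, with ranges of -0.15 to 1.11, -0.24 to 0.06 and -0.25 to 0.16. In lung exposure, DESeq2 and limma-voom gave Ccl5 (4.57) as -0.46 and -0.64, Ccl17 (0.37) as -0.79 and -0.95, Ccl22 (1.89) as -0.78 and -0.91, Ccr6 (0.69) as -0.65 and -0.60, and Ccr7 (1.59) as -0.97 and -1.17. Their ranges were -0.51 to 4.79, -0.85 to 0.55, -0.85 to 2.10, -0.68 to 0.88 and -1.06 to 1.79, each lowest without replicate 6. There limma-voom gave Cxcl3 (0.31) as -1.42, Cxcr2 (0.30) as -1.13, Cxcr1 (-0.21) as 0.15, Ccr2 (-0.09) as 0.05 and Cxcl10 (0.30) as -0.81, with ranges of -1.24 to 0.50, -0.94 to 0.48, -0.77 to 0.70, -0.64 to 0.74 and -0.06 to 0.47. It gave Ccl7 (0.89) as -0.27, Cxcl1 (0.60) as -0.14 and Cxcl16 (1.07) as -0.27. Ccl11 (-0.01) was 0.01 with RLE scaling and with DESeq2 and ranged from -0.28 to 0.30, Ccl6 (-0.48) from -0.85 to 0.02, Cx3cl1 (-0.33) from -0.60 to 0.01 and Cxcl15 (0.31) from -0.15 to 0.53. In bone exposure, limma-voom gave Ccl21a (0.41) as -0.14, Ccl22 (0.47) as -0.01 and Cxcl3 (1.01) as -0.20. Ccl3 (-0.01) was 0.04 with RLE scaling, 0.06 with upper quartile scaling, 0.01 without the filter and 0.04 with DESeq2, and ranged from -0.31 to 0.19. Ccl9 (-0.05) was 0.03 with upper quartile scaling and ranged from -0.19 to 0.10, and Cxcl2 (-0.10) from -0.50 to 0.16. In tumour-free brain against bone, Ccl17 (-0.03) was 0.02 with RLE scaling, 0.05 with upper quartile scaling and 0.02 with DESeq2 (range -0.72 to 0.50), Ccl5 (-0.25) ranged from -1.63 to 0.36, and Cxcr1 (-2.51) was 0.17 with limma-voom. Ranges were -0.83 to 0.15 for Ccl7 (-0.48) and -1.14 to 0.24 for Ccr2 (-0.28) between lung and bone, and -0.27 to 0.35 for Cx3cl1 (0.03) and -0.45 to 0.21 for Cxcl14 (-0.13) between brain and lung. Calls between tumour-free lung and bone were lost for Ccl3, Ccl4, Ccl21a and Cxcl14 without the filter and when either lung control (for Cxcl14, replicate 2) was left out. The replicate block in the tumour-free comparisons gave 37, 32 and 30 calls (39, 33 and 30 without it) by either numbering in the labels; the numbers name libraries and do not show that they are paired. With 2 or 3 libraries in 4 of the 6 groups, and with 1 of the 2 control libraries removed, the lone control is assumed to vary like the other groups. Genes near the filter rest on few counts, and levels under about 1 CPM carry counting error.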

Other observations

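Peak values of the chemokine genes were spread unevenly over the exposed bone libraries. Of 50 genes that reached 1 CPM in exposed bone, 12 were highest in replicate 2 (Brx07, skull), 9 in replicate 12 and 6 in replicate 8 (both Brx68). The share of all genes that peak in each library was not counted. Replicate 2 also had the most genes detected of the exposed bone libraries (25688), so its count of peaks may not be particular to chemokine genes. Replicate 2 held the highest Cx3cl1 (159 CPM), Cxcl10 (168 CPM), Ccl20 (14.1 CPM) and Ccl28 (9.88 CPM). Its neuron and astrocyte markers summed to 319 CPM, against 4.66 to 146 CPM in the other exposed bone libraries, and its epithelial markers to 909 CPM. Ccl20, the mucosal ligand of Ccr6, was above 1 CPM in 3 of the 13 libraries (replicates 2, 8 and 13, at 14.1, 11.2 and 4.55 CPM).

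Libraries that carry the same code in their titles did not share the chemokine levels of lung replicate 6. Where lung replicate 6 had 1787 CPM of Ccl22 and 2021 CPM of Ccr7, brain replicate 3 had 7.29 and 17.3 CPM, the highest of the 5 brain libraries, and bone replicate 4 had 4.28 and 5.74 CPM. Cxcl2 was at 751 CPM in that lung library and at 1002 CPM in bone replicate 4, the highest of the 16 bone libraries.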
